A study of Mus musculus with 8 samples.

Results

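Homeobox genes encode transcription factors that bind DNA through a homeodomain. The 68 members described here were the protein-coding rows of the deposited count table whose symbols belong to 18 homeobox families: the 4 Hox clusters, Dlx, the family of Six2, Pitx, Msx, Lhx, Alx, Barx, Meis, Pbx, Prrx, Otx, Pknox, Tgif and Nkx. They were taken from 23355 rows by a pattern of names. The GENCODE M21 annotation of GRCm38 holds 99 protein-coding genes of the same name pattern, and the other 31 had no row in the table analysed, in which the smallest row total was 10 counts over all libraries.

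RNA came from the epithelium of the cheek lining (buccal mucosa), whose cells were sorted after the tissue had been separated, in wild-type C57BL/6 mice held under specific pathogen free conditions. One group was 1 week old and the other 8 weeks old, with 4 animals and 4 libraries each (1 week 1 to 4 and 8 weeks 1 to 4). All animals were untreated, and neither sex nor the gate of the sort is given in the sources used here. The 8 libraries held 11747783 to 16807773 counts. Summed levels of the basal keratinocyte markers (10 of 10 with a row) were 29215 to 32967 CPM (counts scaled to the TMM-adjusted library total) at 1 week and 23345 to 31403 CPM at 8 weeks, and those of suprabasal oral keratinocytes (12 of 12) were 17280 to 19956 and 20078 to 22965 CPM, so the labelled epithelium was present in every library. In bulk samples fewer cells of a type and less RNA per cell cannot be told apart.

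During embryonic development these genes mark where a tissue lies. Hox genes are active in the trunk and in the posterior pharyngeal arches, whereas the first arch, from which the jaws and cheeks form, is known as free of Hox expression. There Pitx, Dlx, Msx, Barx, Otx and Lhx genes take over as markers of oral ectoderm and jaw mesenchyme. Meis, Pbx, Pknox and Tgif proteins belong to the TALE class, whose members act largely as DNA-binding partners or competitors of other homeodomain proteins.

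Promoters are shown for 2 expressed genes whose CG content was close to the median of their class, and for 2 nearly silent genes near the highest and lowest of theirs. RefSeq promoter entries (GRCm38.p6) matched 42 of the 68 members, and the 250 bases before the annotated start were read. In the lines that follow, 5′ to 3′ on the gene's strand, capitals mark each CG dinucleotide. The Nkx2-3 window lies at chr19:43612075-43612324 on the plus strand, and those of Meis1 (chr11:19018970-19019219), Hoxa13 (chr6:52260881-52261130) and Hoxa9 (chr6:52227371-52227620) lie on the minus strand.
Nkx2-3: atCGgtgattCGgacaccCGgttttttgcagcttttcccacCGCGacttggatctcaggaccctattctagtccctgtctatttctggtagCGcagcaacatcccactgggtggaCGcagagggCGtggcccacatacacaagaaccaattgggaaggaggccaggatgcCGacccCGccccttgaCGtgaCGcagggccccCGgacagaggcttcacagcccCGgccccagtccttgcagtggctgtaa
Meis1: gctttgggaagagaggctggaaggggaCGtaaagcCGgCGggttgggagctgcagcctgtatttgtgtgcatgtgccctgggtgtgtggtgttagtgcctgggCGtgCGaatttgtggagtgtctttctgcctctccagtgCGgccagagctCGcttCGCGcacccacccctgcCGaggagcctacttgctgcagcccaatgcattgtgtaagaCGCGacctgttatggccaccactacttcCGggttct
Hoxa13: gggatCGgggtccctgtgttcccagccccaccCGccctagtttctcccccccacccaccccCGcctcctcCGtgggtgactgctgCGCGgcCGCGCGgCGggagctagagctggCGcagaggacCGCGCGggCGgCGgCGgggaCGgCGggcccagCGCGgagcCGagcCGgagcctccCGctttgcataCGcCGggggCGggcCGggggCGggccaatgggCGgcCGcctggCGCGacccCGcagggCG
Hoxa9: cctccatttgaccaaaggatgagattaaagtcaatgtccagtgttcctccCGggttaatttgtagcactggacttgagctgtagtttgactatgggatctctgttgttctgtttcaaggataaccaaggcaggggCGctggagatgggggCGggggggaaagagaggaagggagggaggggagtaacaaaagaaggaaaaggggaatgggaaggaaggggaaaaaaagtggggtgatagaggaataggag

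The expressed Nkx2-3 and Meis1 held 14 and 13 CG dinucleotides. The nearly silent Hoxa13 held 35 and the likewise nearly silent Hoxa9 held 3. The Hoxa9 window lies inside the annotated gene (52223100 to 52231089), so it precedes an internal start and not the gene's outermost one. The median was 15 (2 to 27) over 23 promoters of 17 members above the count filter, 14 (2 to 35) over 29 promoters of 25 members below it, and 6 over all 32851 promoters of the table. Some windows, among them those of Dlx1, Msx2, Prrx2, Hoxa3, Hoxc4, Nkx3-2 and Nkx6-1, lie wholly within annotated exons of their own gene. They were kept in these medians and in the motif counts below. The homeodomain core TAAT, searched on both strands, was found in 9 of the 23 promoters (39.1%), in 17 of the 29 (58.6%) and in 54.9% of all. The motif TAATCC of Pitx and Otx proteins, which contains TAAT, was found in 1 of the 23, in 0 of the 29 and in 6.25% of all promoters, and TGACAG of Meis and Tgif proteins in 3 of the 23, in 6 of the 29 and in 15.9% of all. These matches are descriptions of the letters and were not tested.

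Of the 68 members 31 passed the filter on low counts, which asks for about 10 counts in 4 libraries, and are called expressed. The other 37 had a median of 22 counts over all 8 libraries and are called nearly silent. A second boundary, a mean of at least 1 CPM, kept 30. Just inside the filter Pbx4 averaged 0.846 CPM over the libraries. The 31 expressed members gave 145973 of 109179998 counts and the 37 nearly silent ones 940.

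Every gene of the 4 TALE families in the set was expressed: 3 of 3 Meis genes, 4 of 4 Pbx genes, 2 of 2 Pknox genes and 2 of 2 Tgif genes passed the filter. Of the oral and jaw families named above, 5 of 6 Dlx genes, 2 of 3 Msx genes and 2 of 3 Pitx genes passed. In the rest of that group 1 of 2 Otx genes, 1 of 2 Barx genes and 3 of 8 Lhx genes passed. The Nkx family had 1 of 14 above the filter and the family of Six2 had 2 of 6. Alx had 1 of 3 and Prrx 1 of 2 above the filter. Of 39 annotated Hox genes 1 passed.

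**Figure D1:**
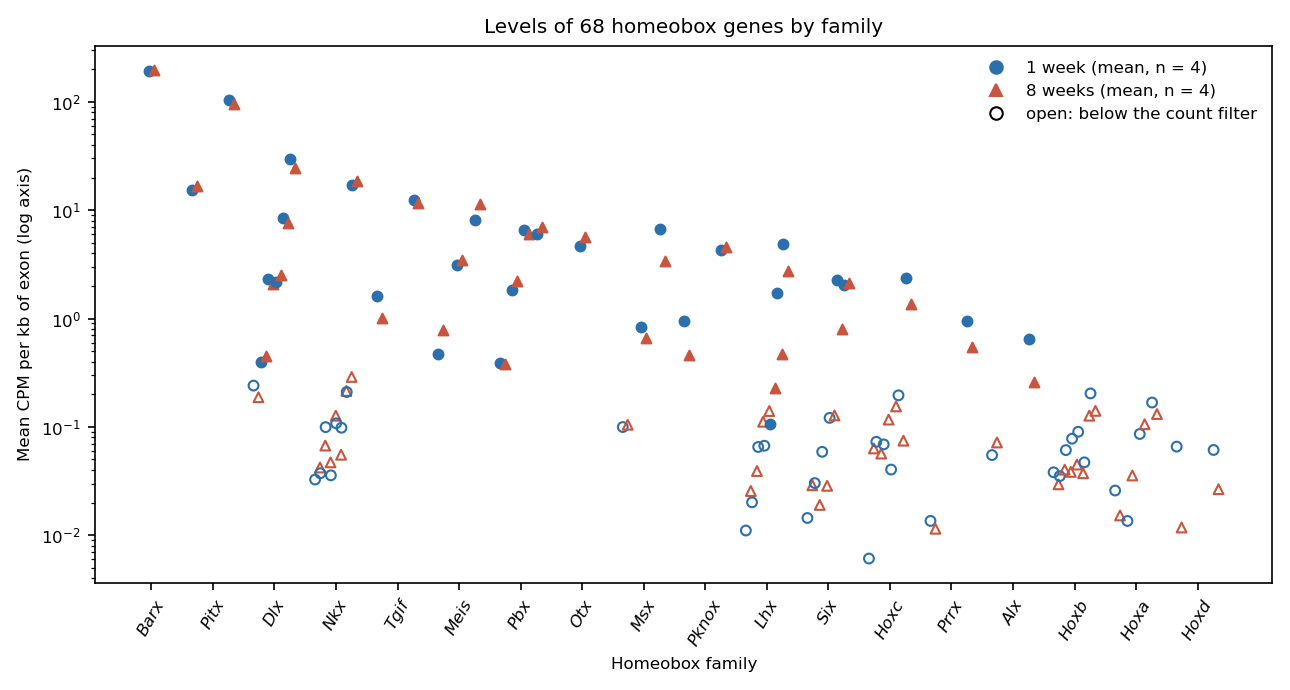
Mean CPM per kilobase of exon on a log axis for the 68 members by family (circles 1 week, triangles 8 weeks, n = 4 each; open symbols are members below the count filter). Barx2 and Pitx1 stand above all others, and filled symbols of the Hox families occur only for Hoxc13.

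Levels were compared between genes as CPM per kilobase (kb) of exon, using the union of all annotated exons. On that scale Barx2 was the highest member, at 191 ± 15.1 CPM per kb at 1 week (SD, n = 4) and 197 ± 22.9 at 8 weeks. Pitx1 followed with 104 ± 3.28 and 95.4 ± 3.86 CPM per kb. The ranges of these 2 genes over the 8 libraries overlapped neither each other nor that of the third, Dlx3 (29.7 ± 3.61 and 24.7 ± 5.55 CPM per kb). From Dlx3 downwards each gene's range over the libraries overlapped that of the next, with Nkx2-3, Tgif1, Meis1, Dlx5 and Pbx2 following in this order among the first 10 places. Exon unions are longer than most single transcripts of a gene. By the longest transcript the first 3 places stayed the same and no expressed member moved by more than 6 places.

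Barx2 encodes a Bar-class homeodomain protein known in mice from oral epithelium, exocrine glands and muscle. Its level in 1 week libraries 1 to 4, in that order here and throughout, was 377, 405, 388 and 335 CPM, and in 8 weeks libraries 1 to 4 it was 336, 444, 373 and 396 CPM. The ages overlapped across most of their range, and the lowest value of each age was nearly the same. The log2 fold change of 8 weeks over 1 week was 0.04 (SE 0.11) and was not called by edgeR (adjusted p = 0.836), and 2 SE to each side span -0.18 to 0.26. Its paralog Barx1, known from stomach and molar mesenchyme, had no row.

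Pitx1 is a bicoid-type factor of the early oral ectoderm that also patterns the hindlimb. Pitx1 read 270, 288, 270 and 277 CPM at 1 week against 245, 265, 245 and 260 CPM at 8 weeks. All 4 older libraries lay below all 4 younger ones by a narrow margin. On the log2 scale 8 weeks differed from 1 week by -0.12 (SE 0.09), which edgeR did not call (adjusted p = 0.375). Pitx1 shares 165 bases of exon with the opposite-strand Gm47071, which had 383 counts, and the strand setting of the counting is not given.

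Dlx genes, relatives of the fly gene Distal-less, lie as neighbouring pairs, and all 6 had a row. Dlx3, known for its part in epidermal and hair differentiation, read 86.1, 82.2, 77.3 and 64.5 CPM at 1 week and 55.8, 81.6, 49.5 and 70.6 CPM at 8 weeks. Its older libraries spread over and below the younger range (log2 fold change -0.27, SE 0.15, adjusted p = 0.255 by edgeR). Dlx5, a gene of jaw, bone and inner ear, read 14.8, 17.5, 20.0 and 24.4 CPM against 15.1, 24.4, 14 and 15.4 CPM, and the ages overlapped (adjusted p = 0.63). Dlx4, next to Dlx3, read 7.34, 7.83, 8.80 and 6.50 CPM and then 6.87, 8.53, 6.4 and 5.26 CPM. Its exons share 79 bases with the opposite-strand Dlx4os, which had 940 counts. Dlx2, a gene of upper-jaw mesenchyme and forebrain, read 6.08, 7.76, 5.65 and 5.25 CPM at 1 week and 4.36, 8.6, 6.79 and 9.26 CPM at 8 weeks. Neither Dlx4 nor Dlx2 was called by edgeR (adjusted p = 0.609 and 0.594).

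Within each neighbouring pair 1 gene led in every library. Per length Dlx3 stood 9.70 to 16.8 times above Dlx4, whose gene lies 15151 bases away, and Dlx2 stood 3.01 to 11.6 times above Dlx1 at a distance of 9427 bases. Dlx5 stood 13.3 to 130 times above Dlx6 over 9237 bases. Dlx6 had 55 counts in all libraries together, so its ratio rests on 2 to 13 counts per library. Dlx1 averaged 2.13 ± 0.476 CPM at 1 week and 2.41 ± 1.53 CPM at 8 weeks (SD, n = 4). Dlx6os1, the noncoding gene beside this pair, had 17 counts.

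Nkx2-3 is known in mice from spleen, gut, salivary gland and tooth, and it was the only Nkx gene above the filter. It read 37.3, 34.2, 41.9 and 30.9 CPM at 1 week and 40.8, 33.4, 40.4 and 43.0 CPM at 8 weeks, with overlapping ranges (log2 fold change 0.13, SE 0.12, adjusted p = 0.512 by edgeR). Of the 13 other annotated Nkx genes 7 had a row, with 197 counts between them. Nkx2-1 of lung, thyroid and forebrain had no row.

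Otx1, a head and forebrain gene, read 19.2, 26.5, 33.5 and 22.3 CPM at 1 week and 23.0, 36.2, 31.2 and 33.4 CPM at 8 weeks. Its ages overlapped, and edgeR did not call it (log2 fold change 0.28, SE 0.17, adjusted p = 0.309). Otx2, the paralog that is essential for the forebrain and eye, had no row. Six5, a neighbour of the myotonic dystrophy kinase gene Dmpk, read 7.34, 6.55, 6.62 and 3.92 CPM and then 8.23, 6.21, 5.43 and 5.76 CPM (adjusted p = 0.87). Of its relatives, which regulate muscle, kidney, ear and eye, Six3, Six4 and Six6 were scarcer and had 24, 29 and 10 counts in all.

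Among the TALE genes Meis1 had the highest CPM, and its long exon union (10532 bases) placed it seventh of all members per length. Meis1, a partner of Hox and Pbx proteins, read 71.1, 81.3, 83.8 and 104 CPM at 1 week and 119, 83.2, 138 and 135 CPM at 8 weeks. Only 8 weeks 2 fell within the younger range. The difference was 0.49 on the log2 scale (SE 0.16), which edgeR did not call (adjusted p = 0.0731) and the DESeq2 Wald test did (adjusted p = 0.0277). Once edgeR was given each gene's length and GC content as an offset, the log2 difference was 0.27 (adjusted p = 0.265). Meis1 shares 1029 bases with Gm37818 on the same strand, a row of 436 counts.

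Pbx3 read 10.6, 11.1, 11.0 and 11.9 CPM and then 16.5, 10.1, 17.2 and 10.2 CPM, high in 8 weeks 1 and 8 weeks 3 and below the younger range in the other 2 (log2 fold change 0.28, SE 0.19, adjusted p = 0.368 by edgeR). Pbx2 read 21.3, 22.1, 30.9 and 20.8 CPM against 19.5, 23.6, 20.9 and 23.6 CPM (adjusted p = 0.602). Pbx proteins form dimers with Meis, Pknox or Hox proteins. Meis2, known from limb and cranial development, read 31.5, 42.6, 40.9 and 34.4 CPM and then 45.7, 28.6, 42.4 and 49.3 CPM (adjusted p = 0.558). Meis3 averaged 1.48 ± 1.04 and 2.48 ± 0.81 CPM and Pbx4 0.854 ± 0.268 and 0.838 ± 0.488 CPM (SD, n = 4).

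Pknox1, the more widely expressed of the 2 Pknox genes, read 25.7, 31.6, 33.2 and 28.6 CPM at 1 week and 34.3, 29.5, 29.7 and 34.5 CPM at 8 weeks (adjusted p = 0.58 by edgeR). Tgif1, a repressor of retinoid and TGF-beta responses, read 60.7, 71.6, 82.1 and 65.3 CPM against 65.5, 79.5, 54.9 and 60.3 CPM, with overlapping ranges (adjusted p = 0.624). Its paralog Tgif2 read 5.46, 6.93, 5.73 and 6.68 CPM at 1 week and 4.63, 2.47, 4.98 and 3.37 CPM at 8 weeks. There the ages did not overlap, although edgeR did not call the gene (log2 fold change -0.68, SE 0.26, adjusted p = 0.109). Tgif2 shares 2171 of its 3832 exon bases with 5430405H02Rik on the opposite strand, a row of 404 counts, so its level is uncertain.

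Hox genes were close to the limit of detection at both ages. Of 39 annotated genes 19 had a row, and apart from Hoxc13 the 18 rows held 10 to 45 counts each over the 8 libraries. Together these 18 gave 395 counts, or 3.62 CPM of all counts, and between 27 (1 week 4) and 95 (8 weeks 3) counts per library. The highest were Hoxa7 with 45, Hoxb6 with 36, Hoxc6 with 33 and Hoxc4 with 30 counts, of which 19 of the Hoxc4 counts came from 8 weeks 3. No cluster or paralog group apart from that of Hoxc13 stood above this level. A gene with 0 counts in a library may still reach 0.178 to 0.255 CPM there, the level of 3 counts, which covers counting error only. Of the 22 noncoding transcripts of Hox, Dlx and related loci set out for comparison, 6 had a row, at 11 to 53 counts each.

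**Figure D2:**
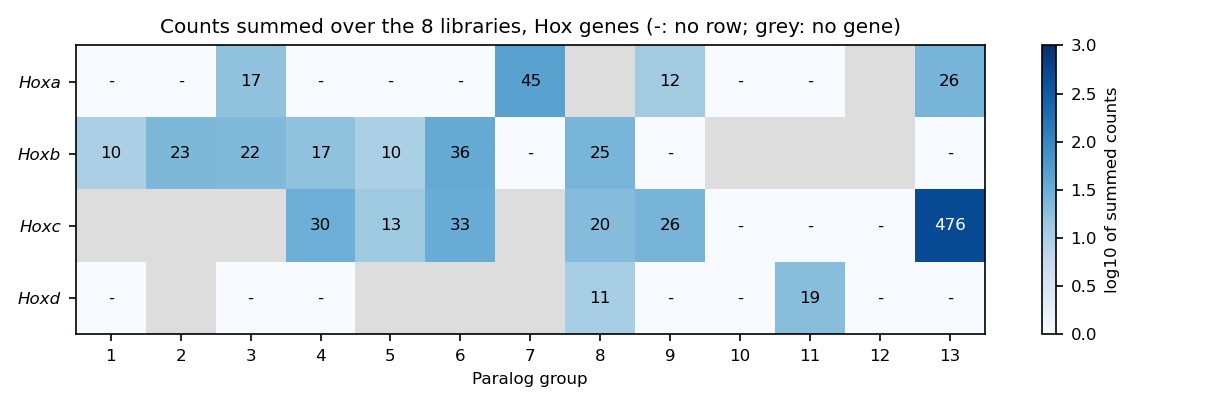
Raw counts summed over the 8 libraries for each Hox gene, by cluster (rows) and paralog group (columns). Hoxc13 had 476 counts and every other gene with a row had 10 to 45.

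Hoxc13, a regulator of hair and nail keratins that is also known from filiform papillae of the tongue, was the exception. It read 4.65, 4.67, 2.02 and 11.9 CPM at 1 week and 3.22, 4.41, 1.62 and 4.21 CPM at 8 weeks. Only 1 week 4 stood apart, and the other 7 libraries overlapped. The log2 fold change was -0.79 (SE 0.46, adjusted p = 0.275 by edgeR), and 2 SE to each side span -1.70 to 0.12. Without 1 week 1 and 1 week 4 it was 0.00. Hoxc12 and Hoxc11, its neighbours in the cluster, had no row.

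The nearly silent members were not evenly spread over the libraries. Summed over the 37 genes they gave 230 counts in 8 weeks 3 (14.9 CPM) and 70 to 132 in each of the other 7 libraries (5.96 to 10.3 CPM). In 8 weeks 3 only 2 of the 37 had 0 counts and 5 had 10 or more, while in 1 week 4 there were 11 at 0 and 0 with 10 or more. Hoxc4 (19 of 30 counts) and Lhx1 (18 of 48) were among the highest there. Lhx2, like Hoxa7, had 45 counts. By family, nearly silent genes gave, among others, 197 counts in Nkx, 143 in Hoxb, 122 in Hoxc, 116 in Lhx, 100 in Hoxa, 55 in Dlx, 30 in Hoxd, 26 in Msx, 15 in Prrx and 13 in Alx.

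Between the ages 3 of the 31 expressed members were called by edgeR's quasi-likelihood test at a Benjamini-Hochberg adjusted p under 0.05, all lower at 8 weeks: Lhx5, Pknox2 and Msx2. That is 9.68% of the members tested, against 6.55% of all 14533 genes tested, of which 3.33% were higher and 3.22% lower. The count of members is thus near the background. The groups did not overlap in 4 members (Lhx5, Pknox2, Pitx1 and Tgif2), or 12.9%, against 14.8% of all genes. Of the 31 members 14 had a positive and 17 a negative log2 fold change, with a median of -0.11 against 0.00 over all genes, and 20 differed by less than 1.5-fold. At an unadjusted p under 0.05 there were 10 of 31 members (32.3%), against 27.8% of all genes. Lhx9, a gene of gonad and limb, had the highest positive value, from 1.02 ± 0.626 to 2.17 ± 0.903 CPM (SD, n = 4), a log2 difference of 1.09 (SE 0.46) that was not called by edgeR (adjusted p = 0.141).

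**Figure D3:**
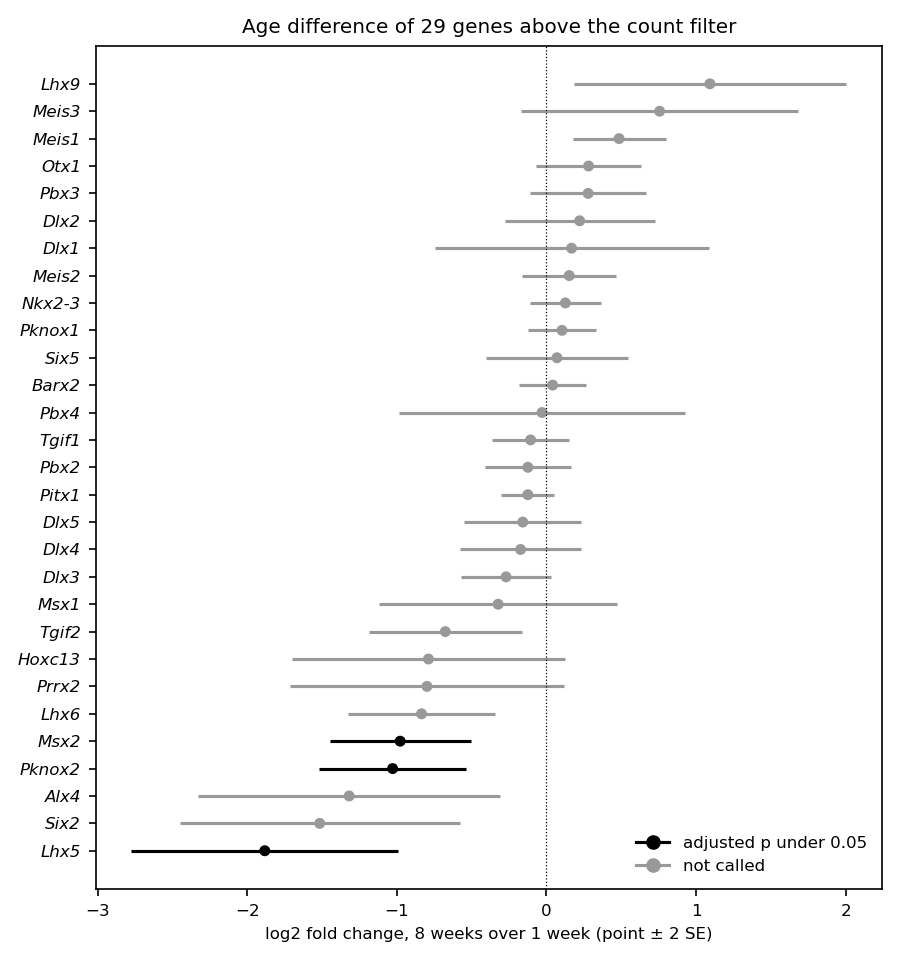
Log2 fold change of 8 weeks over 1 week for 29 expressed members, with 2 SE to each side, from edgeR on 4 against 4 libraries. Black marks the 3 members called (Lhx5, Pknox2 and Msx2), and grey the 26 others shown, which were not.

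Lhx5, a LIM homeobox gene of forebrain and cerebellum development, read 7.60, 1.81, 3.63 and 5.52 CPM at 1 week and 0.654, 1.20, 1.42 and 1.75 CPM at 8 weeks. The lowest younger library lay just above the highest older one. In the edgeR fit Lhx5 (ENSMUSG00000029595) fell 3.69-fold with age (log2 value -1.88, SE 0.45, adjusted p = 0.0327). In GRCm38 the gene lies on chromosome 5, 120431699 to 120441223. These levels rest on 24 to 85 counts per library at 1 week and 12 to 25 at 8 weeks.

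Pknox2, the more restricted partner of Pbx proteins, read 12.8, 5.72, 9.93 and 10.7 CPM at 1 week and 4.20, 5.16, 4.27 and 5.54 CPM at 8 weeks. The ages were separated by the small step between 1 week 2 and 8 weeks 4. In the edgeR fit Pknox2 (ENSMUSG00000035934) fell 2.04-fold with age (log2 value -1.03, SE 0.25, adjusted p = 0.0332). The gene lies on chromosome 9, 36890982 to 37147407.

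Msx2, a target of BMP signalling in teeth, hair follicles and skull, read 29.6, 20.5, 13.8 and 23.3 CPM at 1 week and 8.56, 13.1, 8.34 and 14.4 CPM at 8 weeks. Here 1 week 3 fell inside the older range. In the edgeR fit Msx2 (ENSMUSG00000021469) fell 1.97-fold with age (log2 value -0.98, SE 0.24, adjusted p = 0.0338), on chromosome 13, 53466884 to 53473074. Msx1, its paralog in tooth and jaw mesenchyme, averaged 2.58 ± 1.56 and 2.06 ± 0.233 CPM (SD, n = 4) and was not called (adjusted p = 0.627). Per length Msx2 was above Msx1 in each library, by 2.74 to 16.1 times. Msx3, a gene of the dorsal neural tube, had 26 counts.

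All 3 calls were close to the threshold. With 1 library left out at a time, Lhx5 was called in 4 of 8 fits, Msx2 in 3 and Pknox2 in 2, with adjusted p values up to 0.11 for each of them. None was called without 1 week 1, 8 weeks 1 or 8 weeks 3, or without 1 week 4. Without 1 week 1 the log2 fold changes were -1.54, -0.87 and -0.79 for Lhx5, Pknox2 and Msx2. With the offset for length and GC content, under which 2.65% of all genes were called (1.07% higher and 1.58% lower), Lhx5 and Pknox2 passed (adjusted p = 0.0486 and 0.0462) and Msx2 did not (adjusted p = 0.0544).

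Lhx6, Six2 and Alx4 lay on the other side of the threshold with the same direction. Lhx6, known from jaw mesenchyme and cortical interneurons, read 33.6, 17.2, 13.9 and 28.8 CPM at 1 week and 10.8, 16.2, 11.6 and 13.8 CPM at 8 weeks, with 1 week 1 and 1 week 4 above all others (log2 fold change -0.83, SE 0.25, adjusted p = 0.0573 by edgeR). Six2, a gene of kidney progenitors and palate mesenchyme, read 9.13, 1.96, 2.18 and 6.05 CPM and then 1.25, 2.24, 1.49 and 1.75 CPM. Again 1 week 1 and 1 week 4 stood apart and the rest overlapped (log2 fold change -1.52, SE 0.47, adjusted p = 0.0672). Alx4, a gene of skull and limb mesenchyme, read 8.23, 0.979, 6.21 and 2.85 CPM and then 1.36, 1.5, 2.33 and 2.11 CPM, with 1 week 2 lowest of all 8 (log2 fold change -1.32, SE 0.51, adjusted p = 0.113). DESeq2's Wald test, which called 13.8% of all genes (6.85% higher and 7% lower), called 7 members: these 3, the 3 of edgeR and Meis1. By the authors' deposited table an adjusted p under 0.05 was held by 6 members, that is all of these except Alx4. There it was held by 6.61% of the 23261 genes with an adjusted p. Adjusted p values of the DESeq2 run above covered 14695 genes, so these shares rest on different sets of genes.

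**Figure D4:**
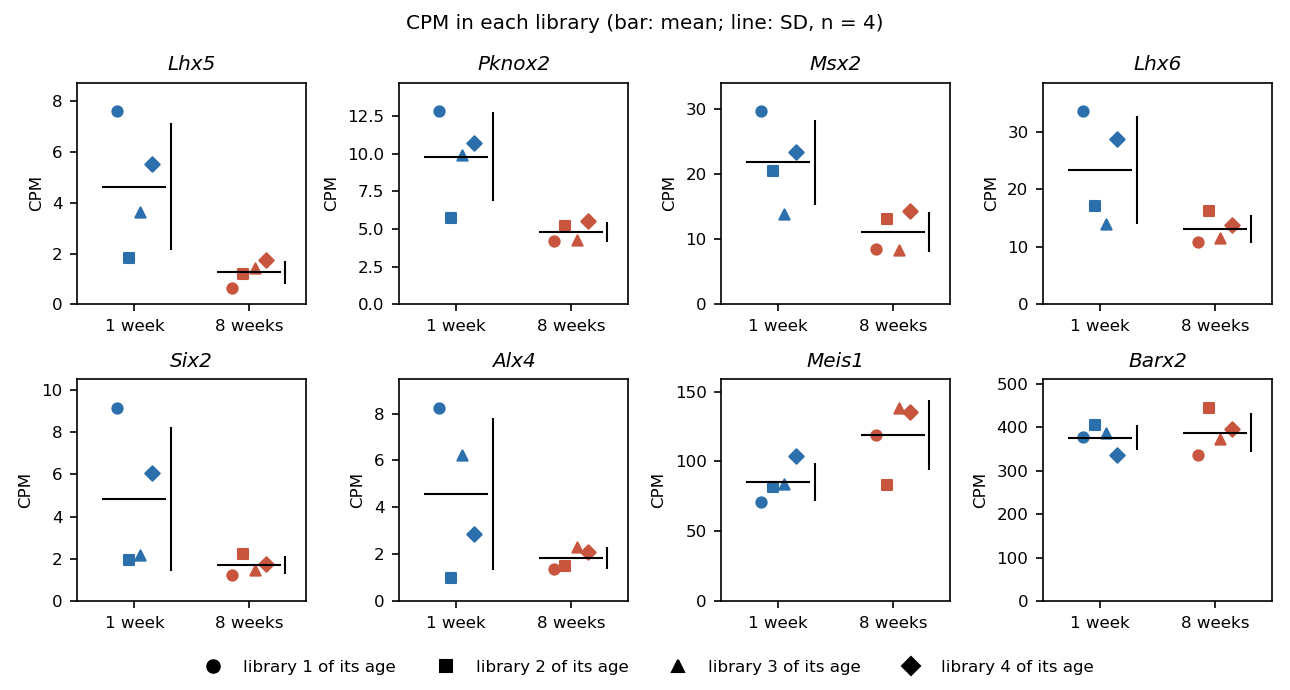
CPM in each library for 7 members called by edgeR or DESeq2 and for Barx2 (bar, mean; line, SD; n = 4 per age; symbols mark the library number). The circle and diamond of 1 week, libraries 1 and 4, are the highest younger points of Lhx5, Pknox2, Msx2, Lhx6 and Six2.

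Those 2 libraries also held the most small structural RNA, counted as all rows of type misc_RNA with Rmrp, Rpph1 and Ccnb1ip1. Ccnb1ip1 is a protein-coding gene, so this sum is not limited to small structural RNA. The sum's share of counts was 5.92% in 1 week 1 and 9.14% in 1 week 4, against 2.82% and 1.01% in 1 week 2 and 3 and 1.12% to 2.01% at 8 weeks. Without both libraries 0 members were called, with 60 genes called in all. The log2 fold changes were then -1.11 for Lhx5, -0.70 for Pknox2, -0.63 for Msx2, -0.30 for Six2 and -0.25 for Lhx6. The part of this RNA in the age difference was not tested.

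**Figure D5:**
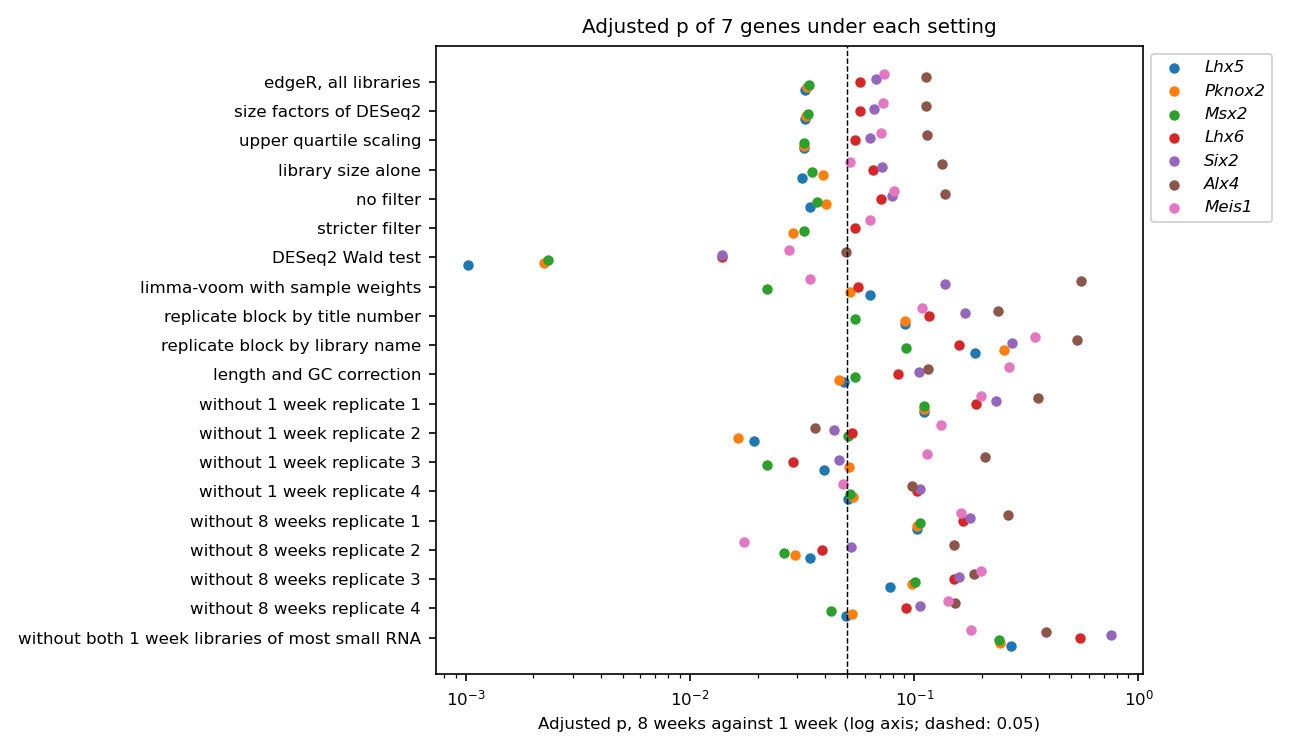
Adjusted p of 7 members (log axis, dashed line at 0.05) under each of 20 settings. Lhx5, Pknox2 and Msx2 lie left of the line with every library scaling and right of it without 1 week 1, 8 weeks 1 or 8 weeks 3.

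Several members are also known from mesenchyme, so markers of other cells are given beside them. Of 12 fibroblast markers 8 had a row, and Twist1, Twist2, Lum and Mfap5 had none. Their summed level was 980 to 1221 CPM at 1 week and 460 to 844 CPM at 8 weeks, nearly all of it Dcn (990 ± 113 and 541 ± 169 CPM; SD, n = 4), the decorin gene, which fell (adjusted p = 0.0231 by edgeR), whereas Col1a1, Col1a2, Col3a1, Pdgfra and Prrx1 had 50, 39, 30, 23 and 15 counts. The other 2 with a row were Fbln1, at 48.7 ± 5.23 and 52.5 ± 3.50 CPM, and Thy1, at 16.1 ± 7.15 and 14.6 ± 6.01 CPM (SD, n = 4), neither of them called by edgeR (adjusted p = 0.515 and 0.789). Prrx1 is itself a member, and Prrx2 averaged 1.87 ± 0.929 and 1.08 ± 0.362 CPM. Melanocyte and glia markers (9 of 10 with a row) summed to 18.2 to 28.9 and 12.3 to 18.1 CPM, with Sox10 at 11 counts, and pericyte and muscle markers (11 of 12) to 19.5 to 22.1 and 5.12 to 18.4 CPM. Endothelial markers (6 of 8) summed to 8.19 to 11.9 and 6.58 to 12.3 CPM, and gland markers (8 of 11) to 26.7 to 57.4 and 33.5 to 63.6 CPM. Leukocyte markers (9 of 13) summed to 155 to 159 and 127 to 148 CPM, mostly Epcam, which the epithelium itself expresses, with Ptprc at 30 counts. In that list H2-Ab1, an MHC class II gene, fell from 19.1 ± 4.38 to 8.77 ± 2.56 CPM (SD, n = 4; log2 difference -1.12, adjusted p = 0.0224 by edgeR, and 0.0712 with the length offset). Erythroid markers (6 of 6) summed to 3.38 to 13.7 and 22.9 to 71.4 CPM. The part of such cells in the differences was not tested.

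Genes around the homeobox factors were counted in the same fit. That edgeR fit called 6.55% of all genes tested (3.33% higher and 3.22% lower), and 2.65% with the length offset. Whether any list exceeded these shares was not tested. Of 35 tested homeobox genes of other families 6 rose and 1 fell. Irx2, an Iroquois gene, went from 0.39 ± 0.267 to 5.70 ± 0.941 CPM (SD, n = 4; log2 fold change 3.82, SE 0.43, adjusted p = 0.00119 by edgeR). Zfhx4 and Zfhx3, which encode large zinc finger homeodomain proteins, rose by 2.63 and 0.84 on the log2 scale. At 1 week Irx2 read 0.0890 to 0.626 CPM and Zfhx4 0.0895 to 0.979 CPM. Both passed the count filter only through their 8 weeks libraries, so only a rise could be seen for them. The ceramide synthase Cers6, which carries a homeodomain-like stretch, rose by 0.64. Tshz1, a teashirt factor, rose by 0.45 and the POU gene Pou2f1 by 0.47, and neither was called with the length offset (adjusted p = 0.0589 and 0.407). Pou3f2, named after its values were seen, fell by 2.16 (adjusted p = 0.0494) and was not called with the length offset (adjusted p = 0.0651). It read 10.4, 1.66, 1.94 and 6.14 CPM at 1 week, highest in 1 week 1 and 1 week 4, and 0.545, 0.673, 2.2 and 1.05 CPM at 8 weeks. With the length offset 5 of the 35 were called, Irx2, Zfhx3, Zfhx4, Cers6 and the ceramide synthase Cers3 (adjusted p = 0.0459), likewise named after its values were seen. The median log2 difference of the 35 was -0.02, against 0.00 over all genes.

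Of 23 tested cofactors, among them Ldb proteins that bind LIM-type factors, 3 rose: the Groucho corepressor Tle3 (0.38) and the kinases Hipk1 (0.40) and Hipk2 (0.49). None of the 23 was called with the length offset. Polycomb and Trithorax proteins keep Hox genes off or on, and all 38 of their genes listed were tested. The methyltransferases Kmt2a (0.63) and Kmt2b (0.48) and the Polycomb partner Asxl1 (0.41) rose, and the Polycomb subunit Cbx8 and the methyltransferase subunit Dpy30 fell by 0.53 and 0.44. With the length offset 1 of the 38 was called, Cbx8 (adjusted p = 0.0491). The median log2 differences were 0.08 for the cofactors and 0.06 for the Polycomb and Trithorax genes. Over all genes tested, edgeR called 3.33% higher and 3.22% lower, and 2.65% in all with the length offset.

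Retinoic acid sets Hox boundaries in the embryo. Of 15 tested genes of its pathway 3 fell, among them the retinol transporter Stra6 by 1.22 and the synthesis enzyme Aldh1a1 by 1.65 on the log2 scale. Of 31 tested genes of BMP, FGF, Hedgehog, endothelin and ectodysplasin signals, which pattern the jaw, 3 fell and 2 rose. Bambi, a decoy receptor, fell by 1.30, the ligand gene Bmp7 by 0.61 and the BMP target Id3 by 0.60, while the receptor gene Fgfr3 and the endothelin gene Edn1 rose by 0.40 and 1.17. Of 15 tested transcription factors of oral ectoderm 4 rose, Sox21 by 0.67, Foxc1 by 0.93, Tfap2a by 0.38 and Grhl2 by 0.40. With the length offset 2 genes of each of these 3 lists were called. Of the genes named, Stra6, Bambi, Bmp7, Sox21 and Tfap2a kept their call. Aldh1a1, Id3, Fgfr3, Edn1, Foxc1 and Grhl2 did not (adjusted p = 0.0528 to 0.111 by edgeR with that offset). Without the offset the log2 differences named had adjusted p values of 0.0164 to 0.0488 by edgeR. Median log2 fold changes of these 3 lists were 0.04, 0.07 and 0.01, against 0.00 over all genes. The shares called over all genes tested were 3.33% higher and 3.22% lower by edgeR, and 2.65% in all with the offset.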

How the data were processed

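Per the labels' protocols, buccal epithelium was freed with dispase II, its cells were sorted, and ribosome-depleted stranded libraries for low RNA input were made. Per the submitters' processing notes the build was GRCm38, and the tools include DESeq2 1.26.0 and HTSeq 0.6.0, TopHat2 2.1.1 and cutadapt 2.10, as well as bcl2fastq 2.20.0.422. The annotation release and the strand setting are not given in the sources used here. The authors deposited raw read counts per Ensembl gene. They also deposited a normalized signal (counts over size factors), log2 fold changes, the Wald score and p-values, per the file headers; only the deposited p-values were printed, named as such. Columns were matched by library name, and 0 per-sample columns were left unmatched.

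The quasi-likelihood test of edgeR 4.0.16 (R 4.3.3) was run on the counts (filterByExpr with a minimum count of 10 and total of 15, TMM, two-sided, Benjamini-Hochberg over all genes, called under 0.05). The SE came from the F statistic. CPM used TMM-scaled libraries; exon unions came from GENCODE M21, which gave all 68 members the same start and end as the table. Depth was 11747783 to 16807773 counts per library, and p-values measure the spread between these animals. Alternatives were other scalings and filters, DESeq2 1.42.0, limma 3.58.1 (voom with sample weights), replicate blocks, a spline on length and GC content (4 degrees of freedom each), and libraries left out. Some genes are not reported here. Members and lists were chosen with earlier results of these data known. Named were all members above the filter, with every library's value from a mean of 5 CPM, the highest of the others, and up to 6 called genes of each further list by smallest p.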

Additional observations from a re-analysis of the deposited data

Results flagged for a closer look

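In 58 groups of 4 libraries (29 expressed members at each age) 2 had 1 library far from the other 3, as the gap to the nearest divided by the range; chance gives about 1 in 20. Pbx2 was high in 1 week 3 (30.9 CPM, ratio 0.87), and Dlx5 was high in 8 weeks 2 (24.4 CPM, ratio 0.87). Neither was called by edgeR, by DESeq2's Wald test or with any library left out.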

How the results depend on the processing

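The number of genes called, 952, was 592 with no filter, 2034 with DESeq2's Wald test, 1640 with limma-voom, 385 after the length and GC correction, 60 without both 1 week libraries of most small RNA, and 91 to 1891 with 1 library left out. For members, 3 were called in the reported fit, 7 with DESeq2, 0 without those 2 libraries, and 0 to 5 with 1 library left out (5 without 8 weeks 2, 1 without 1 week 4 and 0 without 1 week 1, 8 weeks 1 or 8 weeks 3). With a replicate block by title number 161 genes and 0 members were called, and with a block by library name (6 libraries) 92 and 0. Deviations of same-numbered libraries correlated at -0.314, -0.102, 0.001 and -0.103, so no pairing by number was seen. These values cannot tell whether libraries of the same number shared a litter or a batch. Other scalings called the same 3 members (Lhx5, Msx2 and Pknox2), limma-voom called Msx2 and Meis1, and the stricter filter (5 CPM in 4 libraries), which left Lhx5 untested, called Msx2 and Pknox2. The median level per length of the 31 members was 2.35 CPM per kb with exon unions and 4.31 with longest transcripts.

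Signs changed only for members that no fit called, and the cause was not tested. With library size alone Pbx4 had a log2 fold change of 0.049. Limma-voom gave 0.026 for Msx1 and -0.12 for Dlx1. The replicate block by title number gave -0.010 for Dlx1, and the block by library name 0.21 for Msx1, 0.048 for Pbx2, 0.050 for Tgif1 and -0.45 for Dlx1. The length correction gave 0.023 for Dlx5 and 0.14 for Pbx4. Without both 1 week libraries of most small RNA, values were 0.0025 for Hoxc13, -0.0048 for Meis2, -0.014 for Pknox1, -0.030 for Barx2 and -0.033 for Six5. With 1 library left out the ranges were -0.57 to 0.16 for Msx1, -0.18 to 0.027 for Pbx2, -0.51 to 0.17 for Pbx4, -0.037 to 0.10 for Barx2, -0.091 to 0.17 for Six5 and -0.27 to 0.48 for Dlx1. Depth limits the 37 nearly silent members, for which no age difference was tested in the reported fit.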
